A study of Saccharomyces cerevisiae with 2 samples.

Results

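The TCP-1 ring chaperonin, also called CCT or TRiC, is built in budding yeast from the products of 8 genes, TCP1 and CCT2 to CCT8, and all 8 were found among the 6002 protein-coding genes of the annotation. They were chosen by name, not by any measured value, though with earlier results of these data known. The libraries came from a wild-type culture (WT) and a culture of a strain with the temperature-sensitive Hsp90 allele G170D, both in the W303 background. YPD cultures of both strains grew at 30 °C (optical density 0.25 at the start, 0.65 at the end) and were then moved by filtration into 37 °C medium for 15 min, which is non-permissive for the mutant. DNase-seq marks accessible chromatin, and the authors deposited 1 list of hotspots, stretches that DNase I cut readily, for each strain. With 1 library per strain there is no replicate and no p-value, and every comparison below sets 1 library against another. Libraries from before the temperature shift were not analysed here, so words such as loss and gain mean only that G170D had fewer or more covered bases than WT.

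The chaperonin is a pair of stacked rings in which each ring holds one copy of every subunit. Newly made proteins are closed inside the chamber as ATP is hydrolysed, and actin and the tubulins are its best known clients. The co-chaperone prefoldin hands nascent actin and tubulin to it, and the phosducin-like proteins assist with part of its clients. Each of the subunit genes is essential in yeast. The subunits are paralogs that differ in how they bind ATP: TCP1, CCT2, CCT4 and CCT5 (alpha, beta, delta and epsilon) bind it tightly, and CCT3, CCT6, CCT7 and CCT8 (gamma, zeta, eta and theta) weakly. Hsp90 is a separate chaperone that acts later in folding, on kinases, receptors and other clients. The study compared the strains to see where chromatin accessibility changes when Hsp90 is inactivated.

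The WT list held 7050 hotspots covering 3.83 Mb and the G170D list 5988 covering 3.33 Mb. Over all coding genes, the 500 bp upstream of the coding start had a median covered length of 317 bp (WT) and 286 bp (G170D), and the coding body 242 and 170 bp. Depth is unknown, and a shallower or differently digested library can give fewer and narrower hotspots. Its part in the values below was not tested. A difference of at least 100 bp of covered sequence is called less or more covered below. That size was also chosen with earlier results of these data known.

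In G170D, some chaperonin genes had fewer covered bases in front of the start and others had more inside the gene. The upstream window was less covered in G170D at 4 of the 8 genes, TCP1, CCT5, CCT7 and CCT8, against 19.6% of all coding genes. It was more covered at 0 of 8, against 9.61%. The coding body was more covered at 3 of 8, CCT2, CCT4 and CCT6, against 13.3% of all coding genes, and less covered at 0 of 8, against 33.3%. The bodies of CCT5 and CCT8 (0 bp covered in WT) and CCT7 (66 bp) had too little to lose 100 bp. Of all 6002 coding genes, 1190 likewise had no covered body base in WT. CCT3 passed the 100 bp size in neither region, except in the body when only higher-scoring hotspots were kept. Summed over the 8 genes, upstream coverage went from 2106 bp (WT) to 1240 bp (G170D), and coverage of the bodies from 1468 to 3025 bp. The median difference, G170D minus WT, was -72 bp upstream (0 bp over all coding genes) and 65 bp in the body (-17 bp over all coding genes).

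**Figure D1:**
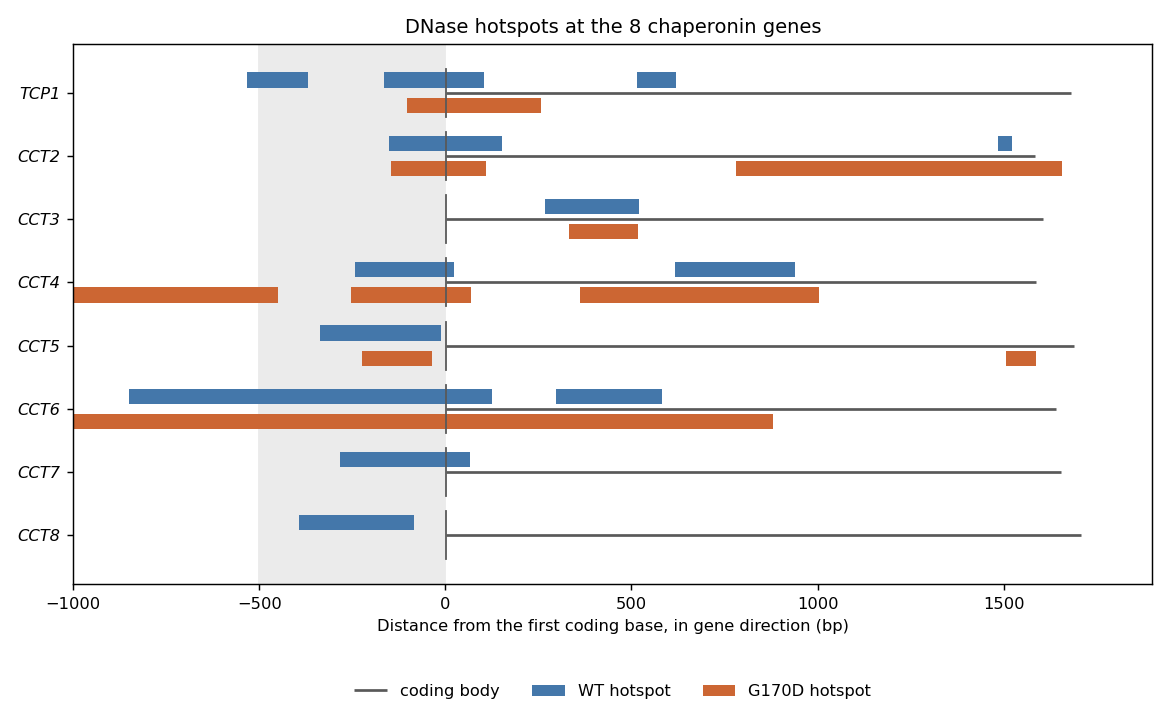
Hotspots that touch the upstream window or coding body of each chaperonin gene, by distance from the first coding base in bp; blue bars are WT hotspots, orange bars G170D hotspots, grey lines the coding bodies, and the shaded band the 500 bp upstream. Bars are cut at the left edge for CCT4 and CCT6. CCT7 and CCT8 have WT bars and no G170D bar. The longest G170D bar inside each of CCT2, CCT4 and CCT6 is longer than any WT bar there, while the bar over the CCT2 start is shorter in G170D (254 bp) than in WT (304 bp).

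A hotspot touched the upstream window in both strains at 5 of the 8 genes, against 72.4% of all coding genes. It did so in WT alone at CCT7 and CCT8 (2 of 8, against 9.58%), in G170D alone at 0 of 8 (against 3.65%) and in neither strain at CCT3 (1 of 8, against 14.4%). In all, 13 WT and 10 G170D hotspots touched a chaperonin gene or its upstream window. A counterpart in the other strain overlapped 9 of these 13 and 9 of these 10, which left 4 without one in WT and 1 in G170D. Over the whole lists, 26.6% of WT and 9.77% of G170D hotspots had no counterpart, so these shares are near those of any hotspot. Most were modest members of their lists. By the authors' score, which is used here only to rank hotspots within a list, 9 of the 13 WT hotspots lay below the list's median, as did 6 of the 10 in G170D. They had median widths of 285 bp (WT) and 341 bp (G170D), beside 329 and 326 bp over the whole lists.

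CCT7 and CCT8 encode the eta and theta subunits, and neither had a covered upstream base in G170D. CCT7 (YJL111W, chromosome X, 207877 to 209529, sacCer3, plus strand) had 282 bp of its upstream window and 66 bp of its body covered in WT and 0 bp of either in G170D. The WT bases belonged to a single 348 bp hotspot that reached from the upstream window into the start of the gene. Its score was at or above that of 35.0% of the WT list, and no G170D hotspot overlapped it. CCT8 (YJL008C, chromosome X, 419957 to 421663, minus strand) had 308 bp covered upstream in WT and 0 bp in G170D, and no covered base in its body in either strain. Its 308 bp WT hotspot spanned positions -393 to -86, counted from the first coding base, and scored at or above 44.3% of the WT list. In G170D the nearest hotspot edge on the upstream side was 2487 bp from the CCT7 start and 654 bp from the CCT8 start. Losses as large as these were seen at 4.08% (CCT7) and 3.27% (CCT8) of all coding genes.

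TCP1 and CCT5, which encode the alpha and epsilon subunits, kept a hotspot in front of the start but had fewer covered bases there in G170D. TCP1 (YDR212W, chromosome IV, 887232 to 888911, plus strand) had 296 bp covered upstream in WT and 102 bp in G170D. In WT this came from a 270 bp hotspot over the start, from position -166 to 104, and from a 164 bp hotspot further upstream. That second hotspot lies within the coding body of the neighbouring gene GCD6, which encodes a subunit of the translation factor eIF2B, and no G170D hotspot overlapped it. In G170D a single hotspot of 359 bp spanned positions -102 to 257, so that the opening over the start reached less far upstream and further into the gene. The body of TCP1 had 209 bp covered in WT and 257 bp in G170D, a difference that turned to -104 bp when only the higher-scoring 50% of each list was kept. When the window was ended at GCD6, the TCP1 difference was -64 bp in place of -194 bp, below the 100 bp size, and a 250 bp window gave the same value. A 1000 bp window gave -456 bp, and joining hotspots within 300 bp of each other -398 bp.

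CCT5 (YJR064W, chromosome X, 555914 to 557602, plus strand) had 326 bp covered upstream in WT and 188 bp in G170D. The WT hotspot spanned positions -337 to -12 and the G170D hotspot -225 to -38, so both edges drew in. Nearly the whole of the 341 bp between CCT5 and its tandem neighbour RPA12, an RNA polymerase I subunit gene, was thus open in WT. The body of CCT5 had 0 bp covered in WT and 82 bp in G170D, in a narrow hotspot near its 3′ end (positions 1506 to 1587) that met no WT hotspot. The hotspots upstream of CCT5, CCT7 and CCT8 all ranked below the median of their lists. With only the higher-scoring 50% of each list kept, the differences at CCT5, CCT7 and CCT8 were 0 bp in place of -138, -282 and -308 bp. With a 250 bp window the CCT5 difference was -51 bp and the CCT8 difference -165 bp.

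**Figure D2:**
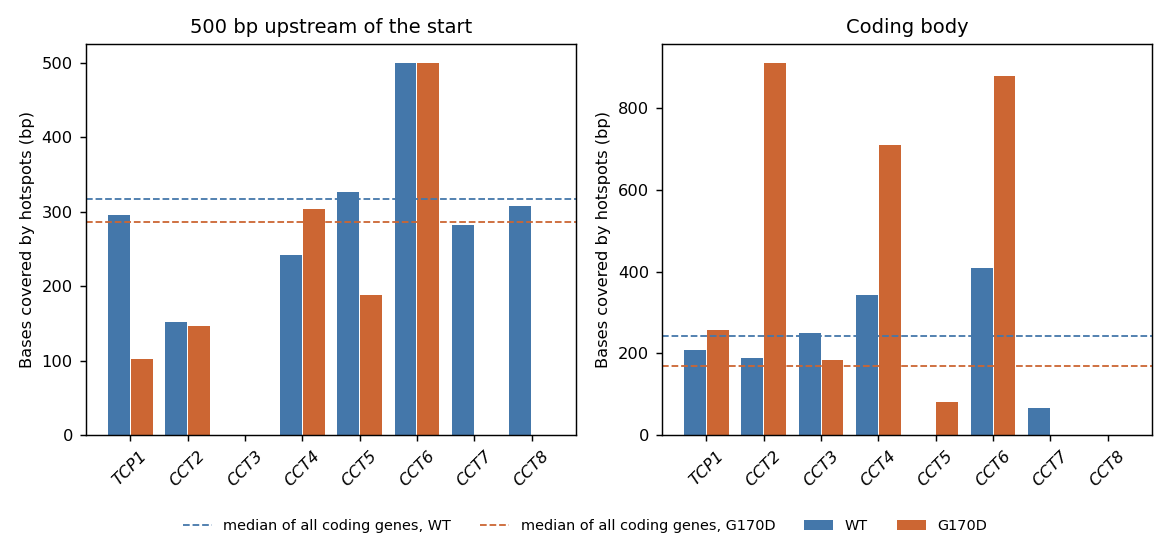
Bases covered by hotspots (bp) in the 500 bp upstream window (left) and the coding body (right) of each chaperonin gene; blue bars are WT, orange bars G170D, 1 library each, and dashed lines are the medians of all coding genes in each strain. Upstream, orange is at 0 bp for CCT7 and CCT8; in the body, orange reaches 912 bp at CCT2, 710 bp at CCT4 and 879 bp at CCT6.

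CCT2, CCT4 and CCT6, the beta, delta and zeta subunit genes, kept their upstream coverage and had a much larger part of the coding body covered in G170D. CCT2 (YIL142W, chromosome IX, 83302 to 84885, plus strand) had 189 bp of its body covered in WT and 912 bp in G170D, or 11.9% and 57.6% of its length. A gain as large was seen at 2.22% of all coding genes. The upstream window hardly differed, with 152 bp (WT) and 146 bp (G170D) covered, and the hotspot over the start was 304 and 254 bp wide. The added bases lay towards the 3′ end of the gene, where a 37 bp WT hotspot sat inside a G170D hotspot of 876 bp (positions 781 to 1656) that ran 72 bp past the coding end. That G170D hotspot scored at or above 84.5% of its list, and the 37 bp WT hotspot at or above 25.1% of its own. With the higher-scoring 50% of each list the upstream difference of CCT2 was -152 bp in place of -6 bp, as its G170D hotspot over the start ranked just below the median.

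CCT4 (YDL143W, chromosome IV, 199996 to 201582, plus strand) had 343 bp of its body covered in WT and 710 bp in G170D, 21.6% and 44.7% of its length, and 242 and 304 bp of its upstream window. The hotspot over its start was 263 bp wide in WT and 323 bp in G170D, and it ranked at or above 27.0% of the WT list and 70.3% of the G170D list. Mid-gene, a 322 bp WT hotspot (positions 618 to 939) was contained in a 641 bp G170D hotspot (362 to 1002). The mid-gene WT hotspot ranked near the bottom of its list, at or above 14.7% of scores. When only higher-scoring hotspots were kept in this way, the CCT4 body difference was 69 bp in place of 367 bp and its upstream difference 304 bp in place of 62 bp. Other settings enlarged the body difference, to 689 bp with lists of equal length and 659 bp with hotspots joined within 300 bp. Joining also put the upstream difference at 258 bp, and a 1000 bp window put it at 562 bp.

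CCT6 (YDR188W, chromosome IV, 836421 to 838061, plus strand) had the most covered bases of the chaperonin genes in WT in both regions. Its upstream window was covered over all 500 bp in both strains, and its body had 410 covered bp in WT and 879 in G170D, the latter 53.6% of its length. In WT, a 975 bp hotspot covered the upstream region and the first 125 coding bases, and a second one of 285 bp lay at positions 298 to 582. In G170D one hotspot of 2348 bp ran without a break from position -1469 to 879 and overlapped both of these and a further WT hotspot upstream. The main WT hotspot was at or above 98.4% of its list and the G170D hotspot at or above 98.2% of its own. The body difference of 469 bp was 754 bp with the higher-scoring 50% of each list and 297 bp with hotspots joined within 300 bp. With a 1000 bp window CCT6 was more covered upstream as well, by 150 bp.

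CCT3, the gamma subunit gene (YJL014W, chromosome X, 407558 to 409162, plus strand), had 0 bp of its upstream window covered in either strain. The nearest hotspot edge upstream was 1171 bp from its start in WT and 1217 bp in G170D. Its one hotspot lay inside the coding body, at positions 269 to 519 in WT (251 bp) and 332 to 516 in G170D (185 bp). The downstream edge of that hotspot was thus within a few bases of the same place in both strains, and the upstream edge drew in. The body difference was -66 bp, and -251 bp with the higher-scoring 50% of each list, where the G170D hotspot dropped out and the WT one stayed. The 284 bp between CCT3 and its tandem neighbour TPH3 held no covered base in either strain.

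The coding bodies of the 8 genes are of similar length, 1584 bp (CCT2) to 1707 bp (CCT8), so bases covered can be set side by side. Among all 620 coding genes with bodies of 1500 to 1800 bp, 16.3% were more covered in G170D and 34.8% less, beside 3 of 8 and 0 of 8 here. CCT5, CCT7 and CCT8 had too few covered body bases in WT to lose 100 bp, and 114 of the 620 genes had none. The differences of the 8 bodies were 723 bp (CCT2), 469 bp (CCT6), 367 bp (CCT4), 82 bp (CCT5), 48 bp (TCP1), 0 bp (CCT8) and -66 bp (CCT3 and CCT7). A body gain as large as that of CCT2 was found at 3.87% of the genes of this length, one as large as CCT6 at 7.42% and one as large as CCT4 at 9.52%. None of the other 5 reached 100 bp. With the common shift of bodies between the lists subtracted (a median of -45 bp over 5090 genes), CCT5 joined the more covered bodies, which made 4, against 16.1% of all coding genes treated the same way.

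Along the genes, chaperonin coverage in WT was concentrated close to the start. In bins of 100 bp, the mean share of bases covered over the 8 genes was 75.5% in WT and 57.9% in G170D just before the start (positions -100 to -1), beside 60.5% and 55.1% over all coding genes. Further out, at -300 to -201, the shares were 53% and 22.4% for the chaperonin genes and 62.0% and 57.0% for all genes. In the first 100 coding bases the shares were close, at 48.4% in WT and 46.1% in G170D, and from position 101 on the G170D share was the higher one in every bin. At positions 801 to 900, 12.5% of chaperonin bases were covered in WT and 34.9% in G170D, beside 16.5% and 14.1% over all genes. Between positions 1001 and 1400 no chaperonin gene had a covered base in WT, and CCT2 supplied nearly all of the coverage in G170D. The first coding base itself lay in a hotspot at 5 of 8 genes in WT and 4 of 8 in G170D (55.0% and 49.8% of all coding genes), and CCT7 made the difference.

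**Figure D3:**
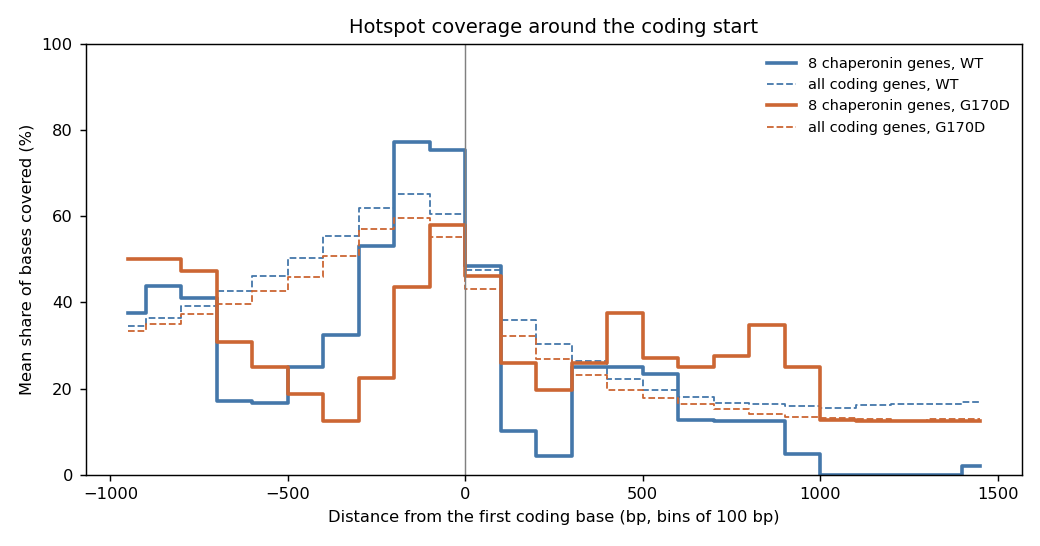
Mean share of bases covered by hotspots (%) in bins of 100 bp from 1000 bp before to 1500 bp after the first coding base; solid lines are the 8 chaperonin genes, dashed lines all coding genes, blue WT and orange G170D. The solid orange line is above the solid blue line before -500 and below it from -500 to the start. It is above again at 801 to 900 (34.9% against 12.5%), while the dashed lines stay close to each other.

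The upstream losses and the body gains fell on genes with different arrangements of neighbours. CCT2, CCT4 and CCT6 are the chaperonin genes whose upstream neighbour is divergent, so that the region between the starts serves both genes, and the other 5 have a tandem neighbour upstream. All 3 with a divergent neighbour were more covered in the body and 0 were less covered upstream, while of the 5 with a tandem neighbour 0 were more covered in the body and 4 less covered upstream. Over all coding genes the arrangement made little difference: bodies were more covered at 14.8% of genes with a divergent and 11.7% with a tandem upstream neighbour, and upstream windows less covered at 19.3% and 20.0%. This grouping of the 8 was noticed after their values were seen and was not tested. The split also depended on the setting. With the higher-scoring 50% of each list, CCT2 was less covered upstream (-152 bp), and the CCT4 body gain was 69 bp. Of the genes with a tandem neighbour, only TCP1 was then less covered upstream (-166 bp), with 0 bp at CCT5, CCT7 and CCT8.

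The divergent partners of CCT2, CCT4 and CCT6 also had more covered bases in their own coding bodies in G170D. All 3 were more covered by at least 100 bp, against 14.8% of all coding genes with a divergent upstream neighbour. SSL2, which encodes a helicase of the transcription and repair factor TFIIH and lies 260 bp from CCT2, had 261 bp covered in WT and 937 bp in G170D. YDL144C, 263 bp from CCT4, had 0 and 884 bp. SND1, which acts in targeting proteins to the endoplasmic reticulum and lies 928 bp from CCT6, had 642 and 868 bp. In the shared regions themselves, coverage was 152 and 146 bp between CCT2 and SSL2, 242 and 254 bp between CCT4 and YDL144C, and 850 and 928 bp between CCT6 and SND1, WT first. The extra coverage at these loci was thus mostly in coding sequence on either side, not between the starts.

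Among the genes with upstream losses, CCT5, CCT7 and CCT8 had tandem neighbours upstream that kept their own upstream coverage. The upstream neighbour of TCP1, GCD6, was itself more covered upstream in G170D. RPA12 upstream of CCT5 had 500 and 497 bp of its upstream window covered in WT and G170D. MDV1, a mitochondrial fission gene upstream of CCT7, had 500 bp in both strains, as did YJL007C upstream of CCT8. The windows of RPA12, MDV1 and YJL007C were full in WT, as at 1801 of the 6002 coding genes. Narrowing of a hotspot wider than the window would not show there. GCD6, upstream of TCP1, had 58 bp (WT) and 181 bp (G170D), and its coding body had 546 bp covered in WT and none in G170D. The 427 bp between MDV1 and CCT7 held 282 covered bp in WT and 0 in G170D, and the 1034 bp between YJL007C and CCT8 held 660 and 380 bp.

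Past the coding end, coverage was uneven: most chaperonin genes had none in a given strain, while CCT7 was largely covered in both. The 500 bp downstream held no hotspot at 5 of the 8 genes in WT and at 5 in G170D, beside 30.2% and 37.7% of all coding genes. It was less covered in G170D at 2 genes, against 19.1% of all coding genes, and more covered at 0, against 8.03%. TCP1 had 280 bp covered there in WT and 0 bp in G170D, CCT5 207 and 0 bp, and CCT7 483 and 436 bp. TCP1 and CCT5 were thus less covered in the windows on both sides of the gene in G170D. Part of that coverage lay in neighbouring genes. The upstream difference of TCP1 was -64 bp when its window was ended at GCD6. The 206 bp between CCT5 and the next gene, ARP3, held 133 covered bp in WT and 0 in G170D, and the rest of the 207 bp lay within ARP3. A less covered upstream window together with a more covered body was found at 0 of the 8 genes, against 1.48% of all coding genes. The downstream window was added after the values above were seen.

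The chaperonin genes are spread over chromosomes IV (3 genes), IX (1) and X (4). CCT3 and CCT8 are the closest pair, 10.8 kb apart, and CCT6 and TCP1 lie 49.2 kb apart. Of the 4 genes on chromosome X, 3 were less covered upstream and 0 more covered in the body. Of all coding genes on that chromosome, 18.4% were less covered upstream and 14.2% more covered in the body, close to the values over the whole genome. By ATP binding, the differences upstream were -194, -6, 62 and -138 bp for the tight binders TCP1, CCT2, CCT4 and CCT5 and 0, 0, -282 and -308 bp for the weak binders CCT3, CCT6, CCT7 and CCT8, so both kinds held genes with and without a loss.

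Among the proteins that work with the chaperonin, prefoldin genes were also often less covered upstream. Over 19 partner genes, 6 were less covered upstream (background 19.6%) and 0 more (9.61%), while 7 bodies were less covered (33.3%) and 0 more (13.3%). At 8 of the 19 the upstream window was full in WT, and several bodies were too, so these could show no gain. Of the 6 prefoldin genes 4 were less covered upstream. GIM4 had 384 bp in WT and 25 bp in G170D, YKE2 500 and 298 bp, GIM5 394 and 204 bp, and PFD1 410 and 310 bp, which is exactly at the 100 bp size. PAC10 had 0 bp (WT) and 97 bp (G170D) and was the only partner with an upstream hotspot in G170D alone. In the body, GIM5 had 468 and 79 bp covered and PFD1 139 and 35 bp. The median prefoldin difference upstream was -145 bp, beside -72 bp for the chaperonin genes and 0 bp for all genes.

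Among client and cofactor genes of the chaperonin, the upstream window was less covered at CDC20 and CDH1 (2 of 2 in their list). It was less covered at 0 of 4 actin and tubulin genes, 0 of 2 phosducin-like genes and 0 of 5 tubulin folding cofactor genes. Over all coding genes the share was 19.6%, and the difference from it was not tested. TUB1 (0 bp covered upstream in WT) and CIN4 (98 bp) had too little to lose 100 bp. ACT1, the actin gene, had all 500 bp covered in both strains, with 544 and 400 bp of its body. TUB1, the main alpha-tubulin gene, had 0 bp covered upstream and in the body in both strains. CDC20 and CDH1, the activators of the anaphase-promoting complex, whose propeller folds are made by the chaperonin, were both less covered upstream, at 500 and 394 bp and at 238 and 88 bp. The body of CDC20 had 113 bp covered in WT and 0 bp in G170D. PLP2, a phosducin-like gene, had 500 bp upstream in both strains and 235 and 56 bp in its body. Of the tubulin folding cofactor genes, CIN4 had 98 bp upstream in WT and 0 bp in G170D, PAC2 had 1024 and 230 bp of its body covered, and CIN1 875 and 725 bp. No partner gene had a body gain of 100 bp or more, against 3 of the 8 chaperonin genes. Several partner bodies, that of YKE2 among them, were fully covered in WT and could not gain. Most partner bodies are also shorter than those of the chaperonin genes. The lists are thus unlike in this measure, and the difference between them was not tested.

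**Figure D4:**
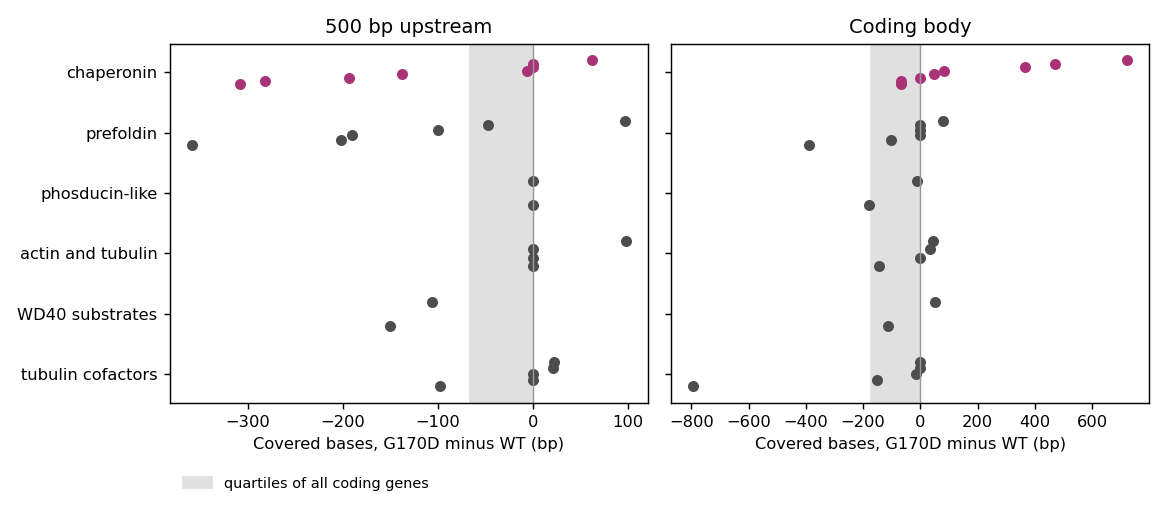
Covered bases in G170D minus WT (bp) in the 500 bp upstream window (left) and coding body (right), 1 point per gene; purple points are the 8 chaperonin genes, dark points the partner lists, and the grey band spans the quartiles of all coding genes. Chaperonin points reach 723 bp on the right of the body panel, and the lowest upstream point is the prefoldin gene GIM4 at -359 bp.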

How the data were processed

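DNase-seq gave 1 library per strain, assigned by source name. The labels' protocols describe limited DNase I digestion of nuclei, a size selection written both as short and as >650 bp, and 101 sequencing cycles. Bowtie 1.0.0, FastQC 0.10.1 and the sacCer3 build are named in the submitters' processing notes. Neither the caller nor its threshold is given in the sources used here. Every deposited list gives chromosome, start, end and the authors' score per hotspot; the meaning of the score is unknown, so it only ranks hotspots within a list. The smallest gap between neighbouring hotspots was 151 bp in both lists.

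Coordinates were set against RefSeq genes of assembly R64 (sacCer3), with strand from W or C in the systematic name, and count from 1. Gene bodies run from coding start to coding end and include introns. Bases covered were counted in the 500 bp upstream and in the body for 6002 genes; hotspots touched a window when at least 1 bp overlapped. With 1 library per strain no test was made. Members, partner lists and the 100 bp size were chosen with earlier results of these data known. All members and their upstream neighbours are named, and partners are named when their upstream window had a hotspot in 1 strain or neither, or a region differed by 100 bp. The counting code was checked on simulated lists. The planned search for promoter motifs needs genome sequence and was left out. Computation used Python 3.11.15, numpy 2.4.6 and pandas 2.3.3.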

Additional observations from a re-analysis of the deposited data

How the results depend on the processing

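No paired analysis was possible because each strain has 1 library, and for the same reason no library could be left out. Of 74 recomputed counts, 61 stayed within 1.5 times the reported count. The others follow, each with the share of all coding genes under the same setting. With the higher-scoring 50% of each list, 1 chaperonin gene had an upstream hotspot in both strains (51.2%), 1 in G170D alone (6.18%) and 4 in neither (31.1%). There 2 genes were less covered upstream (17.6%), 1 was more covered (9.76%), and 2 bodies, those of TCP1 and CCT3, were less covered (24.2%). With a 250 bp window 2 genes were less covered upstream (10.6%). With a 1000 bp window 1 had an upstream hotspot in WT alone (7.60%) and 2 were more covered upstream (15.5%). At a size of 50 bp, 1 gene was more covered upstream (13.0%) and 2 bodies were less covered (41.4%), and at 200 bp, 2 genes were less covered upstream (9.63%). Joining hotspots within 300 bp, an alternative chosen after seeing the data, made 1 gene more covered upstream (8.76%). Joining within 150 bp could change nothing, as no gap was that short. That setting is still counted among the 74 counts and the 54 values below, where it could only repeat the reported values. The cause of the other changes was not tested beyond what each setting removes. Of 54 recomputed values of single genes called at 100 bp, 47 kept their direction and stayed at 100 bp or more, and 0 changed sign. The upstream differences of CCT5, CCT7 and CCT8 went to 0 bp with the higher-scoring 50% of each list. Unknown depth limits all of these: a missing hotspot is one that was not called.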

Other observations

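Of the 8 genes that lie next to a chaperonin gene on its downstream side, 5 had a coding body that was less covered in G170D by at least 100 bp, against 33.3% of all coding genes, 1 was more covered, against 13.3%, and 2 differed by less. Those less covered were UPC2 after TCP1 (653 bp in WT, 91 in G170D), AXL2 after CCT2 (363 and 64 bp), SLY1 after CCT6 (197 and 0 bp), GZF3 after CCT7 (548 and 243 bp) and NOP9 after CCT8 (1528 and 774 bp). ARP3 after CCT5, which encodes an actin-related protein of the Arp2/3 complex, had 118 and 271 bp. MAD3 after CCT3 had 303 and 263 bp, and CRD1 after CCT4 had 78 and 0 bp. The upstream window was less covered at 1 of these 8 neighbours, against 19.6% of all coding genes, and more covered at 0, against 9.61%. The 1 less covered was that of UPC2, the sterol regulator gene, with 448 bp in WT and 185 in G170D. The neighbours were counted after the values of the chaperonin genes were seen.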
